A study of Mus musculus with 12 samples.

Results

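The genes described here encode the proteins of the cytosolic ribosome. They are the 76 genes, of 53647 in the files, whose symbol follows the pattern of the mouse ribosomal protein genes (Rps or Rpl with a number, an a, x or l ending, Rpsa, and Rplp0 to Rplp2) and whose mean over the 12 libraries was at least 20 CPM (counts per 1e+06 counts of the library). They were thus chosen by their name and by their mean level over all libraries, and the rule uses no difference between groups. The choice was made with earlier results of these data known. The counts and p-values below may therefore not be independent of that choice, and they describe the chosen genes. Of the 76 genes, 30 encode proteins of the small 40S subunit and 46 proteins of the large 60S subunit. In all, 83 genes fit the pattern. The 7 left out by the level were Rps10 (4.25 CPM), Rpl32l (0.906 CPM), Rpl24 (0.730 CPM), Rpl3l (0.177 CPM), Rps4l (0.0448 CPM), and Rpl10l and Rpl39l, which had 0 counts in every library. Nearest above the limit were Rpl13a at 104.6 CPM and Rpl21 at 118.6 CPM. All 76 genes passed the filter on low counts and are among the 14863 genes tested.

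A ribosome is assembled in the nucleolus from ribosomal RNA and 1 copy of most of these proteins, so their genes are usually expressed together and at high levels. Many of their mRNAs start with a run of pyrimidines, the 5′ terminal oligopyrimidine or TOP motif, through which the kinase mTOR and the RNA-binding protein LARP1 control their translation. Ribosomal protein genes have many processed pseudogenes, intronless copies of their mRNAs, which can take reads that are hard to place.

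The study measured RNA in 2 mouse cell lines of wild-type genotype, per the labels: DC2.4, an immortalized dendritic cell line, and 4T1, a breast cancer line. Cells received mRNA for uniSTING, by the series title a mimic of the adaptor protein STING, or Mock mRNA, which encodes the fluorescent protein EGFP. In a further pair of groups, DC2.4 cells were kept for 24 h with vesicles shed by 4T1 cells after uniSTING (EXOuniSTING) or Mock (EXOmock). Each of the 6 groups has 2 libraries, called preparations 1 and 2. All mRNA was given either with a transfection reagent or in lipid nanoparticles, and the labels do not say which was used for which library.

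Libraries held 14.1 to 26.0 M counts (M, 1e+06), and preparation 2 was 1.26 to 1.42 times deeper than preparation 1 in every group. Marker genes went against the cell line labels of the 8 libraries given mRNA. The 20 epithelial markers summed to 5667 to 5875 CPM where the label was DC2.4 and mRNA was given (4 libraries) and to 6.52 to 19.97 CPM in the other 8, and the 25 leukocyte markers summed to 153 to 199 CPM in those 4, to 11860 to 12424 CPM in the 4 labelled 4T1 and to 14624 to 17676 CPM in the 4 with vesicles. The epithelial gene Epcam had 0 to 11 counts in the libraries low for that list, and the leukocyte gene Ptprc had 0 to 19 in those low for the other. Groups are therefore called by their labels throughout: "labelled DC2.4" stands for the label and not for the cell. The insulin gene Ins2 (171 to 2117 counts) and the surfactant gene Sftpc (421 to 729 counts) were counted in all 6 libraries of preparation 1 and had 0 counts in preparation 2; their part in the results was not tested. Each p-value sets a difference against the spread between the 2 libraries of a group, estimated over all 6 groups together and not in the compared groups alone. The labels do not call the preparations separate cultures, so that spread may hold technical spread alone.

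The first bases of several mRNAs are shown because the run of pyrimidines is the feature through which these genes are known to be controlled together. RefSeq promoter entries (build GRCm38.p6) were matched for 55 of the 76 genes. Each sequence below gives 15 bases before and 15 bases from the annotated start, 5′ to 3′ on the gene's strand, and capitals mark the run of C and T that begins at the start itself with a C.
Rpl35, chr2:39005117-39005146, minus strand: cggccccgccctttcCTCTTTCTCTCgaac
Rpl38, chr11:114668565-114668594, plus strand: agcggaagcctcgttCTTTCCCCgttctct
Rps27, chr3:90213634-90213663, minus strand: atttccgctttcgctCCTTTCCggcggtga
Rps6, chr4:86857353-86857382, minus strand: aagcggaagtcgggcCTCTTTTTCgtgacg
Rpl15, chr14:18270972-18271001, minus strand: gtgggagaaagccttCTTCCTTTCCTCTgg
Rplp2, chr7:141447636-141447665, plus strand: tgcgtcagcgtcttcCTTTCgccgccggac
Rps28, chr17:33824548-33824577, minus strand: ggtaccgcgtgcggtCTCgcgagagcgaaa
Rpl41, chr10:128549154-128549183, minus strand: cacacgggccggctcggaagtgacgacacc
Rpl37, chr15:5116598-5116627, plus strand: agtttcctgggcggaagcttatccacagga

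A C at the start followed by at least 4 more bases that are each C or T was found in 12 of the 55 genes (21.8%) and in 813 of all 27025 genes with an entry (3.01%). Rps28 has a run of 3 bases, and the annotated starts of Rpl41 and Rpl37 have none. A start can be annotated a few bases away from the one in use, so a missing run says only that these letters are not at this position. In the window from 250 bases before to 50 bases after the start, read on both strands, CCGGAAG, the core bound by factors of the ETS family, stood in 23 of the 55 (41.8%) against 9.93% of all genes. GGGCGG, the GC box, was in 34 (61.8%) against 38.2%, CTTTCC, which lies inside some of the runs above, in 28 (50.9%) against 29.3%, AAGATGGC, a core bound by YY1, in 5 (9.09%) against 3.19%, and TATAAA in 6 (10.9%) against 15.7%. These are matches of letters, not shown binding sites.

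The 76 genes together held between 6.06 and 9.06% of all counts of a library. Their share was 6.38% ± 0.017 (SD, n = 2) in Mock and 7.98% ± 0.027 in uniSTING labelled DC2.4. It was 6.11% ± 0.024 in Mock and 6.08% ± 0.027 in uniSTING labelled 4T1. With vesicles it was 8.83% ± 0.033 in EXOmock and 9.04% ± 0.037 in EXOuniSTING. The rise labelled DC2.4 was thus far larger than the distance between preparations. Under the 4T1 label both uniSTING shares (6.0577 and 6.0956%) lay below both Mock shares (6.0975 and 6.1321%). The nearest of these shares lay closer together than the preparations of either group. Both EXOuniSTING shares (9.01 and 9.06%) lay above both EXOmock shares (8.86 and 8.81%). The widest 95% Wilson interval of any one share spanned 0.0297 percentage points, which covers counting error only. The 40S genes took 2.53 and 3.16% in Mock and uniSTING labelled DC2.4 and the 60S genes 3.84 and 4.82%, so both subunits moved. In bulk RNA, fewer cells of a type and less RNA per cell cannot be told apart.

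**Figure D1:**
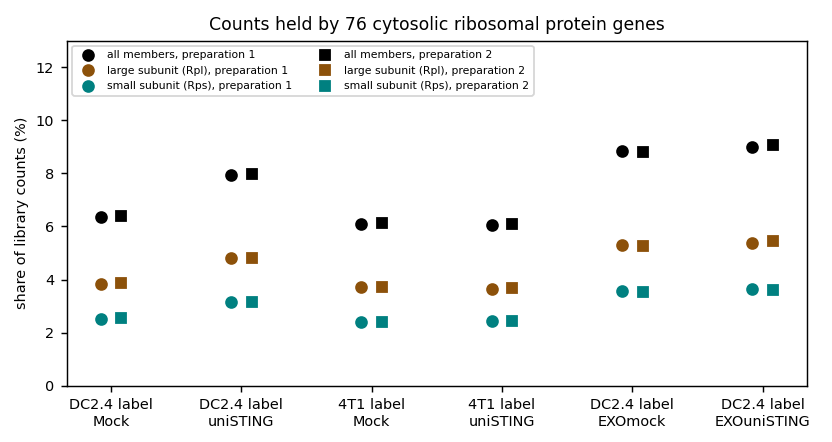
Share of all counts (%, vertical axis from 0) held by the 76 ribosomal protein genes (black), the 60S genes (brown) and the 40S genes (green) in each of the 6 groups, with circles for preparation 1 and squares for preparation 2. The share is near 6.4% in Mock and 8.0% in uniSTING labelled DC2.4, near 6.1% in both groups labelled 4T1, and 8.8 to 9.1% in the groups with vesicles.

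Levels differed widely among the genes, although a ribosome holds most of their proteins once. Mean levels lay between 104.6 and 4162 CPM, with a median of 808 CPM, and the exonic lengths that the files give between 383 and 6270 bases. Per kilobase of that length, the highest levels were those of Rplp1 (2718 CPM per kb) and Rplp0 (2509 CPM per kb), 2 proteins of the stalk to which the elongation factors bind. They were followed by Rpl19 (1817 CPM per kb), Rps15 (1564 CPM per kb) and Rpl4 (1423 CPM per kb). The lowest were Rpl21 (34.9 CPM per kb), Rpl13a (49.5 CPM per kb), Rpl30 (91.9 CPM per kb), Rps28 (97.5 CPM per kb) and Rps15a (106 CPM per kb). Since mean level chose the genes, these levels are a description. The exonic length sums all annotated exons, so a gene with long rare transcripts has a lower level per kilobase than its main mRNA.

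The 2 preparations of a group lay close together: the SD within a group had a median of 1.13% of the mean over the genes. Between groups the levels moved more, with a median ratio of 1.75 of the highest to the lowest group mean. The highest group mean was that of EXOuniSTING for 40 genes, of uniSTING labelled DC2.4 for 24, of EXOmock for 11 and of uniSTING labelled 4T1 for 1. The lowest was that of uniSTING labelled 4T1 for 28 genes, of Mock labelled DC2.4 for 26, of Mock labelled 4T1 for 20 and of uniSTING labelled DC2.4 for 2.

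The question of the first comparison is how the RNA of cells labelled DC2.4 differed between uniSTING and Mock mRNA. Nearly all ribosomal protein genes were higher with uniSTING: 69 of 76 rose and 3 fell at a Benjamini-Hochberg adjusted p below 0.05 in edgeR's quasi-likelihood test, against 20.8 and 20.9% of all genes tested. The median log2 fold change of the 76 was 0.34, beside 0.00 over all genes. It was 0.33 within preparation 1 and 0.33 within preparation 2. The 2 uniSTING libraries lay above both Mock libraries for 70 genes and below both for 4 (of all genes tested, 33.4 and 35.7%). Of the 30 genes of the 40S subunit 29 rose and 0 fell, and of the 46 genes of the 60S subunit 40 rose and 3 fell. With the trend by gene length removed, the counts were 62 and 6.

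**Figure D2:**
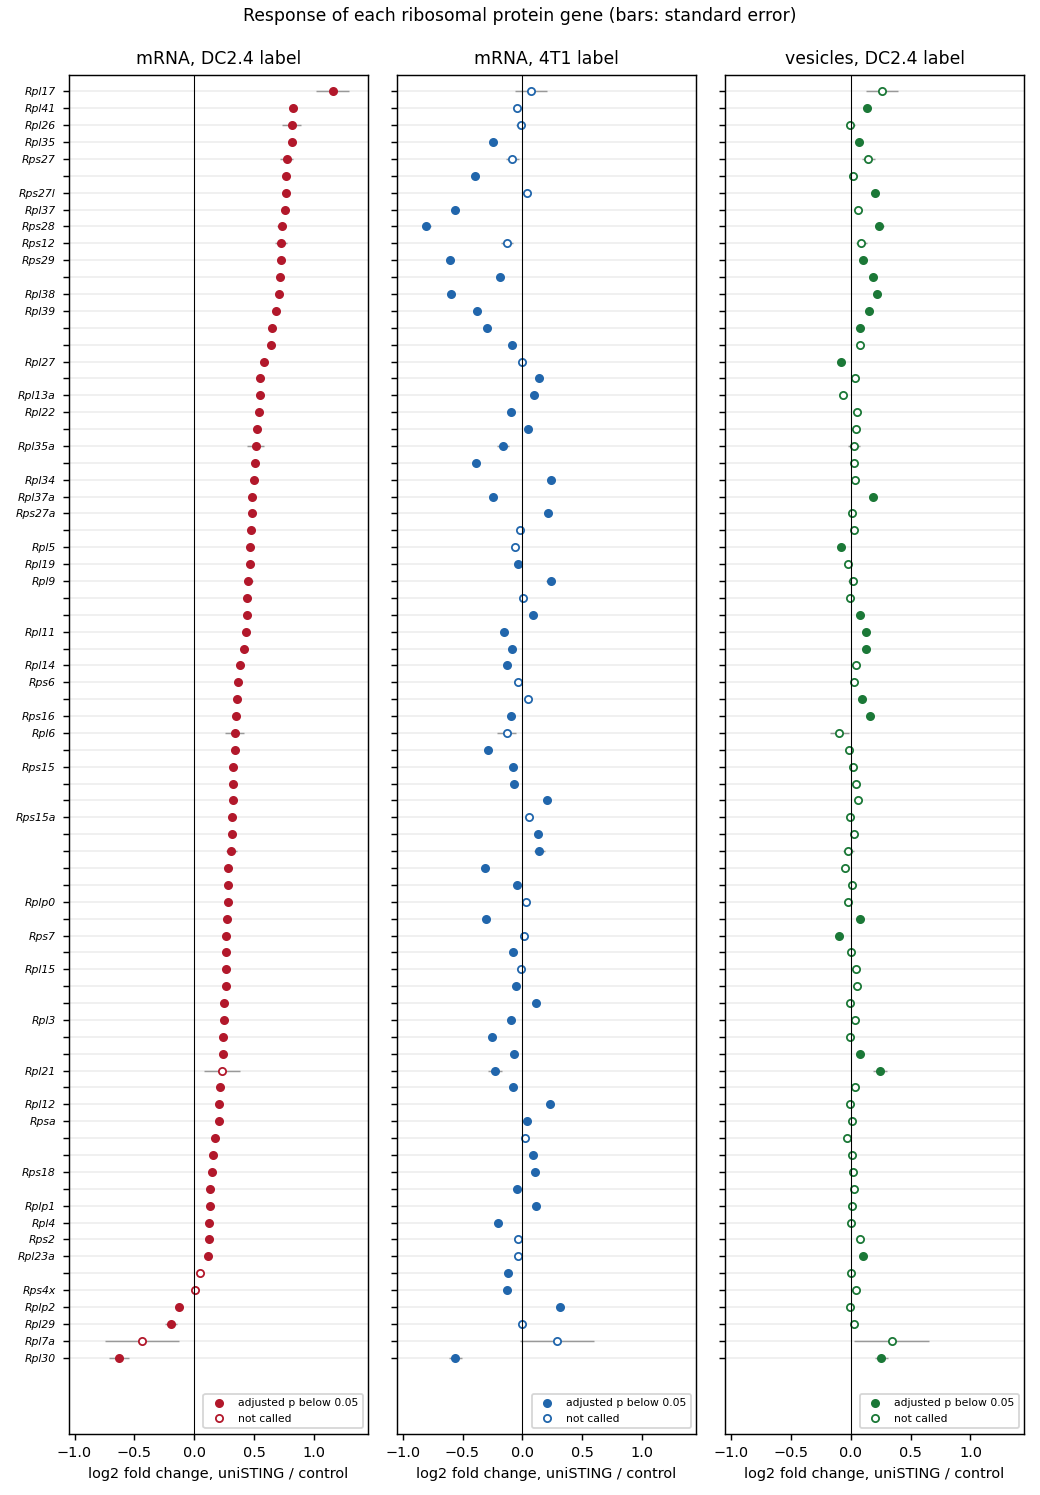
Log2 fold change of uniSTING over control (horizontal axis, bars of 1 standard error) for each of the 76 genes, ordered by the response labelled DC2.4 and named where the text gives the gene, with filled circles for an adjusted p below 0.05. The left panel has 69 filled circles above 0 and 3 below, the middle panel (4T1 label) 17 and 37, and the right panel (vesicles) 20 and 3.

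The largest rises included genes of the exit tunnel, through which the growing chain leaves the 60S subunit. All 9 genes of that list rose, beside 69 of all 76. Rpl35 (ENSMUSG00000062997, GRCm39 chromosome 2, 38891592 to 38895636, minus strand), which encodes a protein at the tunnel's rim, stood at 406 and 404 CPM in preparations 1 and 2 of Mock and at 699.8 and 704 CPM in uniSTING. The log2 fold change was 0.81 (SE 0.018, adjusted p = 1.33e-12), so the groups were far apart relative to their preparations. Rpl39, whose small protein lines the tunnel, went from 159.6 and 159 CPM to 249 and 254 CPM (log2 fold change 0.68, SE 0.026). Rpl22, also placed near the exit, had 349 and 365 CPM in Mock and 506 and 519 CPM in uniSTING (log2 fold change 0.54). Rpl19, one of the most highly expressed per length, had 1665 and 1688 CPM in Mock and 2265 and 2290.0 CPM in uniSTING (log2 fold change 0.46). The smallest rise of the list was that of Rpl23a, at 0.11, and that of Rpl4, which narrows the tunnel, was 0.12.

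Rpl17 and Rpl26, the other exit tunnel genes among the 6 largest rises, need a closer reading. Rpl17 had the largest fitted rise of all 76, from 381 and 380.3 CPM to 808 and 861 CPM (log2 fold change 1.15, SE 0.14, adjusted p = 1.06e-05). When its named pseudogene copies were added to it, the log2 fold change was 0.53 (SE 0.014, adjusted p = 2.94e-12 in the same edgeR test), so less than this rise remains for the gene and its copies together. Rpl26 (ENSMUSG00000060938, GRCm39 chromosome 11, 68792409 to 68797815, plus strand) was rare in these libraries, at 17.1 and 14.6 CPM in Mock and 29.6 and 25.3 CPM in uniSTING (log2 fold change 0.81, SE 0.079). In the other 8 libraries the same gene stood at 671 to 1165 CPM.

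Genes of several of the smallest proteins were among the largest rises. Rpl41 (ENSMUSG00000093674, GRCm39 chromosome 10, 128383983 to 128385174, minus strand), whose protein is the shortest of the ribosome, had 1881 and 1863 CPM in Mock and 3231 and 3305 CPM in uniSTING. Its log2 fold change was 0.82 (SE 0.023, adjusted p = 7.09e-12). Rpl37, a short zinc-binding protein of the 60S subunit, had 329.7 and 319 CPM in Mock and 534 and 548 CPM in uniSTING (log2 fold change 0.76). Rpl38, known from mice with altered Hox mRNA translation, had 148 and 146 CPM in Mock and 239 and 233 CPM in uniSTING (log2 fold change 0.70). In each of these genes both uniSTING libraries were above both Mock libraries.

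In the head of the 40S subunit, where the anticodon end of tRNA is held, all 13 genes rose, beside 69 of all 76. Rps28 (ENSMUSG00000067288, GRCm39 chromosome 17, 34038001 to 34043536, minus strand), which lies near the path of the mRNA, had 117 and 116 CPM in Mock and 193 and 189 CPM in uniSTING (log2 fold change 0.73). For Rps29, which binds zinc beside the decoding site, the levels were 90.2 and 87.9 CPM and 142 and 147 CPM (log2 fold change 0.72). The smallest rise in the head was that of Rps18 (0.15), which is taken up again with its copies. Rps27a, which is made as a fusion with ubiquitin, rose by 0.48 on the log2 scale.

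Outside the head, the paralogs Rps27 and Rps27l, of which the latter is a known target of p53, both rose. Rps27 had 268 and 277 CPM in Mock and 441 and 476 CPM in uniSTING (log2 fold change 0.77, SE 0.055), and Rps27l had 129.5 and 131 CPM and 214 and 221 CPM (log2 fold change 0.76, SE 0.031). Rps6, the substrate of S6 kinase, went from 1431 and 1451 CPM to 1836 and 1814 CPM (log2 fold change 0.36). Rpsa, also known as the laminin receptor, went from 4625 and 4638 CPM to 5239.8 and 5296 CPM (log2 fold change 0.20). Rpl5 and Rpl11, which form a particle with 5S ribosomal RNA and bind the p53 regulator MDM2, rose by 0.47 and 0.43 on the log2 scale. The log2 fold change of Rpl13a was 0.54.

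The genes that fell were Rpl30, Rpl29 and Rplp2. Rplp2 (ENSMUSG00000025508, GRCm39 chromosome 7, 141027283 to 141031498, plus strand) encodes a protein of the 60S stalk and fell from 393 and 392 CPM in Mock to 352 and 357 CPM in uniSTING (log2 fold change -0.13, SE 0.022, adjusted p = 0.000288). The other stalk genes rose: the log2 fold change was 0.28 for Rplp0, 0.13 for Rplp1, and 0.21 for Rpl12, which lies at the base. With the length trend removed, the value of Rplp1 was -0.089, so its direction depends on that correction. Rpl30 (ENSMUSG00000058600, GRCm39 chromosome 15, 34440651 to 34443786, minus strand) had 59.9 and 63.2 CPM in Mock and 41.8 and 37.3 CPM in uniSTING (log2 fold change -0.63, SE 0.084, adjusted p = 2.93e-05). Rpl29 had 33.9 and 35.4 CPM against 31.2 and 28.9 CPM (log2 fold change -0.20, adjusted p = 0.00586). The call of Rpl29 was lost without preparation 2 of Mock (-0.17, adjusted p = 0.0652) or of uniSTING (-0.13, adjusted p = 0.140).

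Among the genes that passed in neither direction, Rps4x was level, with 1396 and 1368 CPM in Mock and 1369 and 1361 CPM in uniSTING (log2 fold change 0.002, SE 0.017). Rpl21, at 10.3 to 13.4 CPM, had a log2 fold change of 0.23 (adjusted p = 0.254). Rpl7a had 595 and 613 CPM in Mock and 449 and 432 CPM in uniSTING, but its preparations differed widely in the other groups (208 and 568 CPM in Mock labelled 4T1), and its log2 fold change of -0.44 had an SE of 0.31 (adjusted p = 0.288) in the fit over all 12 libraries. Its fall passed with only the 4 libraries compared (-0.44, SE 0.023, adjusted p = 7.35e-08), with no filter on low counts (adjusted p = 1.98e-52) and without preparation 1 or 2 of Mock labelled 4T1 (adjusted p = 0.0448 and 0.0465).

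In the libraries labelled 4T1 the same comparison of uniSTING and Mock mRNA moved the genes in both directions. Of the 76, 37 fell and 17 rose, against 15.7 and 12.6% of all genes tested; the median log2 fold change was -0.053, beside -0.01 over all genes. Within preparations 1 and 2 the median was -0.030 and -0.022. Both uniSTING libraries lay below both Mock libraries for 39 genes and above both for 26 (of all genes tested, 29.6 and 33.9%). Among the 30 genes of the 40S subunit 10 rose and 11 fell, and among the 46 of the 60S subunit 7 rose and 26 fell. With the length trend removed, 8 rose and 41 fell.

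The largest falls were in genes of short proteins, several of which were among the largest rises labelled DC2.4. Rps28 fell from 189.5 and 181 CPM in Mock to 110.4 and 106 CPM in uniSTING (log2 fold change -0.80, SE 0.036, adjusted p = 5.51e-09). Rps29 went from 175 and 166 CPM to 117 and 111 CPM (log2 fold change -0.61). Rpl38 went from 180.1 and 176 CPM to 120.0 and 119 CPM (log2 fold change -0.60). These 3 had no overlap between the groups. Rpl37 had 319.8 and 321 CPM in Mock and 218 and 225 CPM in uniSTING (log2 fold change -0.56). Rpl30, which fell under both labels, went from 400.2 and 341 CPM to 254 and 256 CPM (log2 fold change -0.56, SE 0.055).

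Among the exit tunnel genes 5 of 9 fell and 0 rose, beside 37 and 17 of all 76. Rpl39 had 157 and 155 CPM in Mock and 119.5 and 124 CPM in uniSTING (log2 fold change -0.38). Rpl35 went from 431 and 429 CPM to 371 and 369 CPM (log2 fold change -0.24), and Rpl4 fell by 0.20 on the log2 scale. Among the 13 genes of the 40S head 5 rose and 6 fell. Of the 5S particle genes Rpl11 fell (-0.15, adjusted p = 0.000659), while the value of Rpl5 was -0.061 (adjusted p = 0.0847). Rps4x, level under the other label, fell from 1129 and 1141 CPM to 1057 and 1053 CPM (log2 fold change -0.13).

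Of the 4 stalk genes 3 rose and 0 fell, beside 17 and 37 of all 76. Rplp2 had 328 and 329 CPM in Mock and 416 and 415 CPM in uniSTING, the largest rise of the 17 (log2 fold change 0.31, SE 0.022, adjusted p = 2.69e-07). Rpl12, at the base of the stalk, had 1036 and 1054 CPM and 1252 and 1243 CPM (log2 fold change 0.23). Rplp1 rose by 0.11 on the log2 scale, a call that was lost with the length trend removed (0.073), and the value of Rplp0 was 0.032 (adjusted p = 0.0756). The other large rises were those of Rpl34 (422 and 423 CPM to 501 and 514 CPM, log2 fold change 0.24) and Rpl9 (601 and 643 CPM to 735 and 759 CPM, 0.24) of the 60S subunit. In the 40S subunit, Rps27a rose by 0.21 on the log2 scale. Rps6, Rps27, Rps27l and Rpl41 did not pass, with log2 fold changes of -0.041, -0.086, 0.034 and -0.048. Rpl41 had 782 and 801 CPM in Mock and 772 and 789 CPM in uniSTING, so the groups overlapped.

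The vesicle groups address which genes of DC2.4 cells differ by the mRNA that the vesicle-giving 4T1 cells had received. Changes were small: 20 of the 76 genes rose and 3 fell in EXOuniSTING against EXOmock, beside 7.96 and 8.14% of all genes tested, and the median log2 fold change was 0.034. With upper-quartile factors 32 rose and 1 fell. Within preparations 1 and 2 the median was 0.030 and 0.037, and both EXOuniSTING libraries lay above both EXOmock libraries for 47 genes and below both for 9 (of all genes tested, 28.0 and 28.1%).

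The largest rise that passed was that of Rpl30, with 412 and 443 CPM in the EXOmock and 509 and 513 CPM in the EXOuniSTING libraries (log2 fold change 0.26, SE 0.053, adjusted p = 0.00533). Its call was lost without preparation 1 of EXOmock (0.20, adjusted p = 0.0614). Rpl7a and Rpl17 had higher fitted values, 0.34 and 0.26, that did not pass. Rpl21 had 174 and 174 CPM and 206 and 206 CPM (log2 fold change 0.25, adjusted p = 0.0107), and its call was lost without any one of 3 of the 4 vesicle libraries. Rps28 had 193 and 178 CPM and 221 and 217 CPM (log2 fold change 0.24, adjusted p = 0.000401). The short-protein genes thus included rises here too: Rpl38 had 180.1 and 181 CPM and 216 and 206 CPM (log2 fold change 0.22), and Rpl37a had 398 and 393 CPM and 448 and 453 CPM (0.19, adjusted p = 5.04e-05). Rps27l had 174 and 177 CPM and 206 and 199 CPM (log2 fold change 0.20), Rpl39 rose by 0.15 and Rpl41 by 0.14. The 3 falls were all below 0.1 on the log2 scale: Rps7 (-0.099, adjusted p = 0.00963), Rpl27 (-0.083, 0.0253) and Rpl5 (-0.078, 0.0455), and each call was lost when one or another vesicle library was left out. The 4 stalk genes did not pass in either direction, with Rplp2 at 412 and 419 CPM in the EXOmock and 408 and 419 CPM in the EXOuniSTING libraries. In the 40S head 5 of 13 rose and 0 fell, and in the exit tunnel 3 of 9 and 0, beside 20 and 3 of all 76.

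The 3 responses were then compared with each other by interaction terms of the same fit. Between the labels given mRNA, the response was higher under the DC2.4 label for 67 of 76 genes and lower for 2 (of all genes tested, 16.0 and 15.1%). The difference was 1.53 for Rps28 (SE 0.051, adjusted p = 6.75e-11), 1.33 for Rps29, 1.32 for Rpl37 and 1.31 for Rpl38. The genes with a lower response under the DC2.4 label were Rplp2 (-0.44, adjusted p = 1.29e-07) and Rpl29 (-0.20, adjusted p = 0.0177). Of the 69 genes that rose under the DC2.4 label, 33 fell, 16 rose and 20 passed in neither direction under the 4T1 label. Rpl30 fell under both, with a difference of -0.069 that did not pass (SE 0.10, adjusted p = 0.668), and Rplp2 fell under the first and rose under the second. Rpl12 rose under both, and its 2 responses differed by -0.020 (SE 0.022, adjusted p = 0.557).

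**Figure D3:**
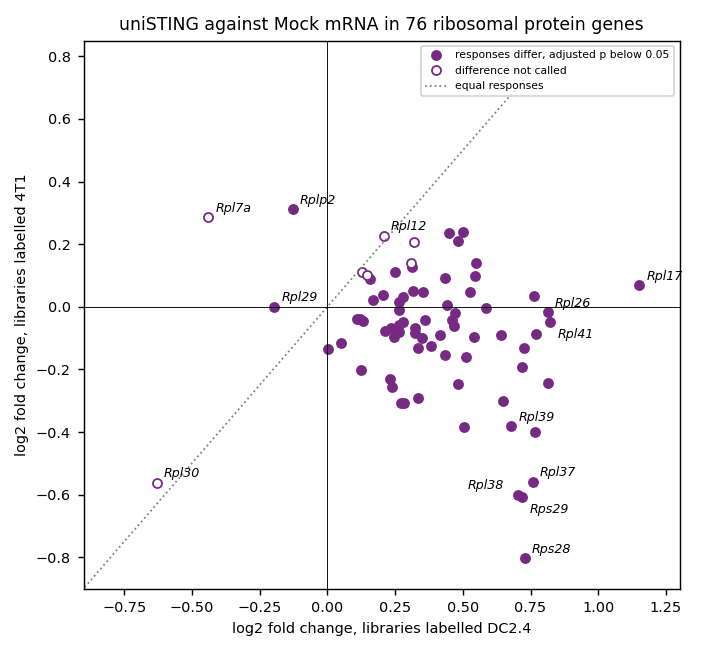
Log2 fold change of uniSTING over Mock mRNA in the libraries labelled DC2.4 (horizontal axis) and in those labelled 4T1 (vertical axis) for the 76 genes, with filled circles where the 2 responses differ at an adjusted p below 0.05 and a dotted line of equal responses. Most genes lie right of 0 and below the line, and Rps28, Rps29, Rpl38 and Rpl37 lie lowest among those far to the right, while Rplp2 lies alone at the upper left with a called difference.

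Against the vesicle response, the mRNA response labelled DC2.4 was higher for 67 genes and lower for 3 (of all genes tested, 15.3 and 15.3%); the 3 were Rpl30 (-0.89), Rpl29 (-0.23) and Rplp2 (-0.12). The response labelled 4T1 was higher than that to vesicles for 15 genes and lower for 40 (of all genes tested, 13.0 and 15.0%). Rplp2 (0.32) and Rpl12 (0.23) were among the 15, and Rps28 (-1.04, SE 0.050, adjusted p = 8.93e-09) and Rpl38 (-0.82) among the 40. Without preparation 2 of EXOmock the 15 became 9. Of the 33 genes that rose under the DC2.4 label and fell under the 4T1 label, 13 rose with vesicles and 20 passed in neither direction.

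Ribosomal protein genes are short, and in the libraries labelled DC2.4 many other short genes also rose with uniSTING, so the 76 genes were set beside the 7914 other genes of at least 20 CPM in bins of exonic length. Up to 1 kb, all 11 ribosomal protein genes and 138 of 219 other genes rose, with medians of 0.53 and 0.30. From 1 to 2 kb the medians were 0.46 and 0.24 (27 of 31 and 395 of 640 rose), and from 2 to 4 kb they were 0.27 and 0.083 (25 of 28 and 834 of 2165). Over 4 kb all 6 ribosomal protein genes rose, with a median of 0.31, while 867 of the 4890 others rose and their median was -0.093. The median of the ribosomal protein genes was thus above that of the others in every bin, and both declined from the shortest bin to that of 2 to 4 kb.

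Under the 4T1 label no such decline was seen. The medians of the ribosomal protein genes were -0.083, -0.086 and -0.054 in the first 3 bins and 0.049 over 4 kb, beside -0.0043, 0.066, -0.0012 and -0.036 for the other genes. With vesicles they were 0.077, 0.048, 0.024 and 0.034, beside 0.024, 0.028, 0.014 and -0.017.

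**Figure D4:**
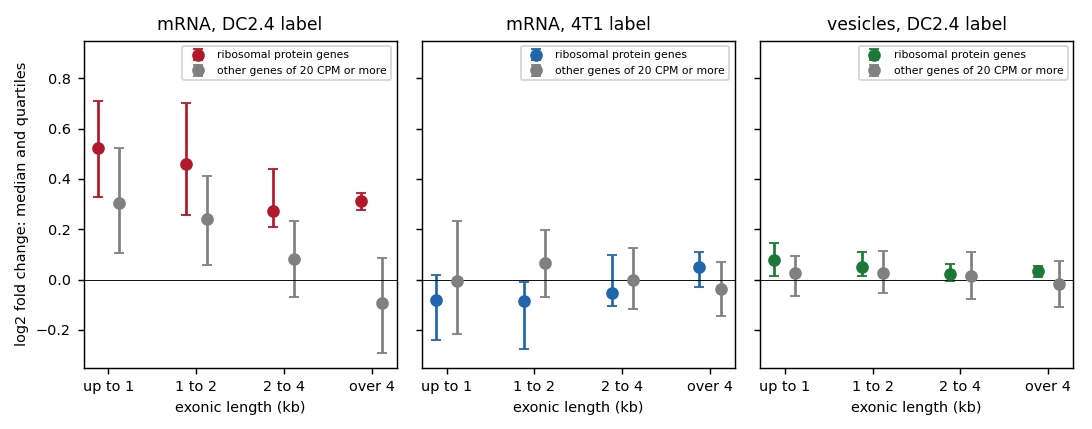
Median log2 fold change with quartiles (vertical axis) of the ribosomal protein genes (coloured) and of other genes of at least 20 CPM (grey) in 4 bins of exonic length in kb, for the mRNA pair labelled DC2.4, the mRNA pair labelled 4T1 and the vesicle pair. In the first panel the coloured medians go from 0.53 in the shortest bin to 0.31 in the longest and the grey ones from 0.30 to -0.093; in the other panels all medians lie within 0.1 of 0.

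The length of the coding sequence, which leaves out the untranslated and rarely used exons that add to the exonic length, was known for 75 of the 76 genes. In 4 equal bins of coding length (up to 366, 456 and 615 bases, and longer), the medians labelled DC2.4 were 0.64, 0.45, 0.27 and 0.24. The same bins had medians of -0.19, -0.051, 0.0024 and -0.053 labelled 4T1, and 0.11, 0.042, 0.013 and 0.032 with vesicles. Across genes, which are not independent and share their libraries, Spearman's rho of the response with coding length was -0.55 labelled DC2.4, 0.31 labelled 4T1 and -0.39 with vesicles. The bin with the shortest coding sequences thus had the median farthest from 0 in each pair, above 0 under the DC2.4 label and with vesicles and below 0 under the 4T1 label.

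Genes with and without the run of pyrimidines shown above are set side by side, with no test of a difference. Under the DC2.4 label, 11 of the 12 genes with the run rose and 1 fell (median 0.37), and 41 of the 43 matched genes without it rose and 0 fell (median 0.41). Under the 4T1 label, 2 and 6 of the 12 rose and fell (median -0.11), beside 9 and 21 of the 43 (median -0.061). With vesicles 4 and 0 of the 12 and 12 and 3 of the 43 did so. Rpl35, with a run of 11 bases, and Rpl41, with none, rose by 0.81 and 0.82 on the log2 scale. Rplp2, the gene of the 12 that fell, has a run of 5 bases.

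Because only uniquely placed reads were counted, pseudogene copies bear on these values. The annotation names 300 copies by a symbol that starts with Rps or Rpl and has the ending -ps. Copies under other symbols, such as Gm6136 beside Rpl6, are left out of these counts and of the sums, so more genes may be affected. Of the 300, 185 had a count and 85 were tested, and together they held 0.321% of all counts. They include 4 copies of Rps10 (336 CPM together) and 1 of Rps4l, genes that are not among the 76. A named copy exists for 58 of the 76 genes. For 9 the copies took over 10% of the sum of gene and copies: Rpl17 (36.9%), Rpl14 (31.9%), Rpl21 (31.6%), Rps12 (26.6%), Rps2 (22.6%), Rpl7a (15.0%), Rps16 (11.8%), Rpl3 (10.8%) and Rpl9 (10.2%). Of the 18 genes with no named copy, 17 rose and 1 fell under the DC2.4 label, 4 rose and 11 fell under the 4T1 label, and 6 rose and 0 fell with vesicles. Each gene was also summed with its copies, an alternative chosen after seeing the data. Under the DC2.4 label 67 of the 69 rises and all 3 falls then held. Rps18 changed from a rise (0.15) to a fall (-0.32, adjusted p = 2.45e-07 in the same edgeR test). The rise of Rps2 (0.12) was lost, with a summed value of -0.059 (adjusted p = 0.0700). Under the 4T1 label 17 rises and 36 of 37 falls held, and with vesicles all 20 rises and 3 falls.

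Rpl17 and its copy Rpl17-ps10 moved in opposite directions between preparations in most groups. In preparations 1 and 2 of Mock labelled 4T1, Rpl17 stood at 704 and 540.2 CPM. In those of EXOmock it stood at 1128 and 831 CPM. Rpl17-ps10 had 209.9 and 349 CPM and 319 and 623 CPM in the same order. Their sums were 914 and 889.6 CPM and 1447 and 1454 CPM, closer together than gene or copy alone. How reads were placed between gene and copy was not tested. Over the 6 groups the preparations differed by at most 35.8% in Rpl17 and 95.4% in Rpl17-ps10, but by at most 2.69% in the sum. Rpl6 and Gm6136, a processed pseudogene chosen after its values were seen, differed by at most 28.2 and 125% alone and 2.29% in the sum. For Rps2 and Rps2-ps10 the sum differed by at most 8.11%, beside 8.19% for Rps2 alone. For Rps18 and Rps18-ps3 the sum differed by at most 5.36%, beside 4.05% for Rps18 alone. The sums of Rpl17 and Rpl17-ps10 were 799.7 and 789 CPM in Mock and 1158 and 1156 CPM in uniSTING labelled DC2.4, a clear separation.

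**Figure D5:**
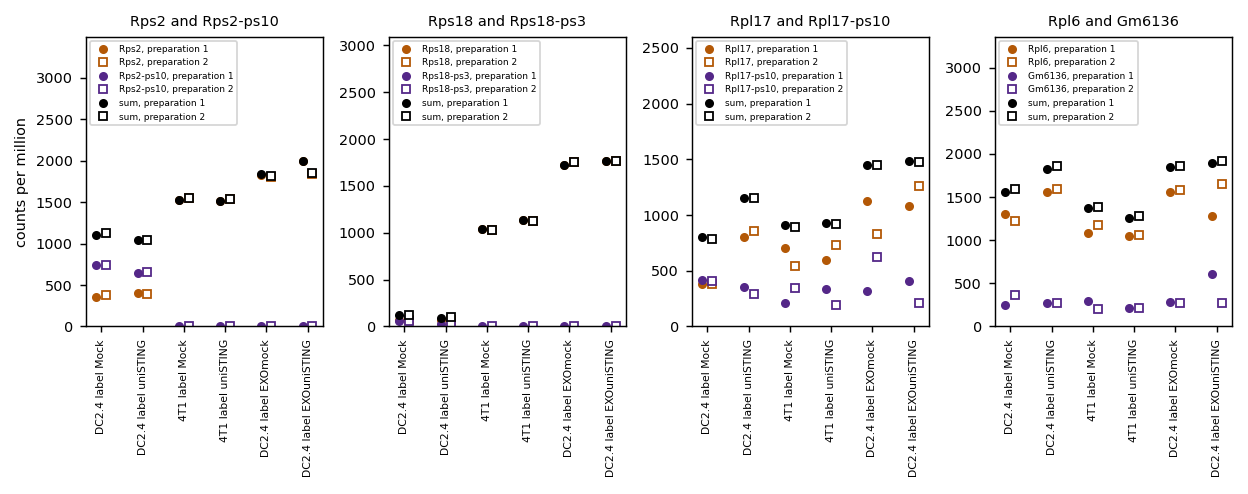
CPM (linear axes from 0) of 4 ribosomal protein genes (orange), 1 copy of each (purple) and their sum (black) in the 6 groups, with filled circles for preparation 1 and open squares for preparation 2. Rps2-ps10 is high only in the 4 libraries labelled DC2.4 with mRNA, where Rps2 is low. For Rpl17 and Rpl6 the sums of the 2 preparations lie closer together than the genes do in most groups.

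Across the 6 groups, 7 genes were at least 5-fold apart between their highest and lowest group mean, and each was lowest in the mRNA libraries labelled DC2.4, which carry the epithelial markers. They were Rpl26 (73.4-fold), Rps18 (26.7-fold), Rpl21 (19.5-fold), Rpl35a (16.9-fold), Rpl30 (12.9-fold), Rpl29 (12.8-fold) and Rps2 (5.16-fold). Rps18 had 66.7 and 65.7 CPM in Mock and 70.7 and 73.5 CPM in uniSTING labelled DC2.4, and 1030 to 1765 CPM in the other 8 libraries. Rps2, near the entry of the mRNA channel, had 361 and 384 CPM and 405 and 394 CPM there and 1510 to 1994 CPM elsewhere. Its copy Rps2-ps10 went the other way, with 746 and 743 CPM in Mock and 641 and 652 CPM in uniSTING labelled DC2.4 and 2.28 to 6.52 CPM in the other libraries. For Rps18-ps3 the levels were 56.4 and 54.1 CPM and 22.6 and 24.7 CPM there, beside 0.635 to 1.42 CPM in the other libraries. Whether these low levels come from how reads of these cells were placed between gene and copy was not tested. The 3 genes that fell under the DC2.4 label include 2 of these 7, Rpl30 and Rpl29.

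In Mock libraries, 41 of the 76 genes were higher under the DC2.4 label than under the 4T1 label and 27 lower (53.9 and 35.5%, beside 42.4 and 40.5% of all genes tested), with a median log2 difference of 0.13. In EXOmock 72 genes were higher than in Mock labelled 4T1 and 0 lower (of all genes tested, 26.1 and 27.6%), with a median log2 difference of 0.52. Rpl19, for example, had 1391 and 1388 CPM in the Mock libraries and 2219.6 and 2229 CPM in those of EXOmock. These comparisons share the Mock libraries labelled 4T1, and treatment, cell line and culture cannot be told apart in them.

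Of the genes of the ribosome beyond the symbol pattern, 6 of 8 rose and 0 fell under the DC2.4 label, among them Fau (0.36), the fusion gene of a 40S protein, Rps3a1 (0.21) and Rack1 (0.16), which sits on the 40S head. Under the 4T1 label 4 of the 8 rose and 1 fell, with Rpl22l1, the paralog of Rpl22, at 0.67, and with vesicles 0 passed in either direction. The genes of the mitochondrial ribosome, which serves the mitochondrial genome, rose in 57 of 77 cases under the DC2.4 label and fell in 0 (median 0.26), and 33 rose and 3 fell under the 4T1 label (median 0.13). With vesicles 3 rose and 2 fell. These and the following lists are described by their counts only, to be read beside the shares of all genes tested that rose and fell (20.8 and 20.9% under the DC2.4 label, 12.6 and 15.7% under the 4T1 label, 7.96 and 8.14% with vesicles), and no list was tested against others. The lists were not matched by exonic length, along which the medians of other genes declined under the DC2.4 label. How far length bears on these lists was not tested.

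The 22 other mRNAs known to carry the TOP motif did not follow the ribosomal protein genes throughout. Under the DC2.4 label 11 rose and 6 fell (50.0 and 27.3%, median 0.094). Tpt1 rose by 0.43, while Pabpc1, the poly(A)-binding protein, fell by 0.34 and Eef2, the translocation factor, fell by 0.29 on the log2 scale. Under the 4T1 label 2 rose and 9 fell, with Eef2 at -0.32 and Pabpc1 at -0.28, and with vesicles 6 rose and 1 fell.

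In each pair the genes of ribosome assembly, not matched by length, had a median of the opposite sign from that of the ribosomal protein genes. Of 60 such genes, 12 rose and 26 fell under the DC2.4 label (median -0.083), among them Polr1a, the large subunit of RNA polymerase I, at -0.94, and Utp20, of the small-subunit processome, at -0.92. Under the 4T1 label 32 rose and 2 fell (median 0.13), with Mdn1, an ATPase of 60S assembly, at 0.51. With vesicles 0 rose and 33 fell (median -0.14), with Mdn1 at -0.85 and Nop56, a protein of the small nucleolar particles, at -0.35. Of 24 regulators of the mTOR, LARP1 and MYC pathways, 4 rose and 13 fell under the DC2.4 label (16.7 and 54.2%), with Larp1 at -0.71 and Myc at -0.40, and 6 rose and 9 fell under the 4T1 label, with Cnbp at 0.35. The shares of assembly genes and regulators that rose under the DC2.4 label were thus near or below that of all genes. With vesicles 1 rose and 9 fell, with Larp1 at -0.22. Myc fell farther under the 4T1 label (-1.67, adjusted p = 0.000612; difference of the responses 1.26, adjusted p = 0.00419, both in edgeR's test). Its levels there were low, at 1.82 CPM ± 0.28 (SD, n = 2) in Mock and 0.60 CPM ± 0.087 in uniSTING, and its log2 fold change with vesicles was -0.63 (adjusted p = 0.0616).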

How the data were processed

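RNA of the 12 libraries (1.0 µg of total RNA each) went into a NEBNext Ultra RNA kit, per the labels' protocols, which state no strand. The values are whole-number counts per gene as the authors deposited them: reads were aligned to GRCm39 with HISAT2, per the submitters' processing notes (version not stated there). Per the file headers, featureCounts (Subread 2.0.1) then counted unique alignments of read pairs on Ensembl 103 exons, with no strand option. Reads that fit a gene and a copy equally well are lost by that step, and reads of an antisense partner are added. A symbol was found for 52093 of the 53647 genes in a table of gene names.

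CPM here is the count over the library total. The fit in edgeR 4.0.16 (R 4.3.3) held all 12 libraries with a mean for each group, scaled by TMM and filtered with filterByExpr, followed by the quasi-likelihood F test and Benjamini-Hochberg adjustment over all 14863 genes, threshold 0.05. Each standard error is the fold change divided by the root of F. The common biological coefficient of variation was 3.05%. Data were simulated with 100 genes changed 1.5-fold and 100 changed 3-fold. Apart from these changes, each gene had the same mean in all groups, with dispersions from the fitted trend. For the DC2.4 label (14277 genes) 81 and 97% were recovered, for the 4T1 label (14296 genes) 78 and 95%, and for vesicles (14277 genes) 77 and 99%. In the same order, 4.30, 4.42 and 2.76% of the calls were false. These rates hold for that setting, and groups of unlike cells were not simulated.

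The genes named are, per comparison, the 6 genes called with the largest rise and the 6 with the largest fall and no overlap between libraries, 18 fixed genes, the 3 smallest adjusted p per direction for differences of responses and per list, the 5 highest and 5 lowest per kilobase, and those nearest the limit of 20 CPM; other names in the text were chosen after their values were seen, and the values of some genes are not reported here. The members and lists were chosen with earlier results of these data known. Alternatives were DESeq2 1.42.0, other scalings and filters, limma-voom (limma 3.58.1), fewer libraries, the replicate block, a length trend removed by lowess and each library left out. Summing genes with their copies, and the alternatives of the comparisons between control groups, were added after seeing the data. The main fit did not pair samples by preparation. Over 7342 genes, deviations of preparations correlated between uniSTING and control at 0.60 (DC2.4 label), 0.056 (4T1 label) and 0.020 (vesicles). Over the members alone these correlations were -0.058, 0.41 and -0.58. Figures were drawn with matplotlib 3.10.9 in Python 3.11.15.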

Additional observations from a re-analysis of the deposited data

Results flagged for a closer look

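Responses that differed between pairs, by the interaction terms of the edgeR fit at an adjusted p below 0.05, are listed here with no explanation. Between the labels given mRNA, 67 genes had the higher response under the DC2.4 label and 2 the lower. Among the smallest adjusted p values were those of Rpl35 (a log2 difference of 1.06) and Rpl37 (1.32) upward, and of Rplp2 (-0.44) and Rpl29 (-0.20) downward. The Rpl29 difference was lost without preparation 2 of Mock or uniSTING labelled DC2.4 or of uniSTING labelled 4T1.

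Between mRNA labelled DC2.4 and vesicles, 67 genes had the higher response with mRNA and 3 the lower. Rpl35 (0.75) and Rpl19 (0.48) differed upward. Rpl30 (-0.89), Rpl29 (-0.23) and Rplp2 (-0.12) differed downward, and the call of Rplp2 was lost without preparation 1 of EXOmock and that of Rpl29 without preparation 2 of either mRNA group.

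Between mRNA labelled 4T1 and vesicles, 15 genes had the higher response with mRNA and 40 the lower. Rplp2 (0.32), Rpl12 (0.23) and Rpl34 (0.20) differed upward, and Rps28 (-1.04), Rpl38 (-0.82) and Rpl37 (-0.62) downward.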

How the results depend on the processing

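The main counts of rises and falls were 69 and 3 (DC2.4 label), 17 and 37 (4T1 label) and 20 and 3 (vesicles). With each library left out in turn they ranged from 68 to 70 and 2 to 4, from 13 to 18 and 26 to 40, and from 14 to 26 and 1 to 4; the vesicle falls were 1 without any one of the 4 vesicle libraries. The medians ranged from 0.34 to 0.35, from -0.068 to -0.040 and from 0.033 to 0.038. Differences between the labels ranged from 64 to 67 higher and 1 to 3 lower, those of the DC2.4 label from vesicles from 66 to 67 and 2 to 4, and those of the 4T1 label from vesicles from 9 to 16 and 34 to 41. Between the labels the lower differences were 1 without preparation 2 of Mock or uniSTING labelled DC2.4 or of uniSTING labelled 4T1. The Mock comparison ranged from 37 to 42 and 26 to 31, and that of EXOmock from 70 to 73 and 0 to 0.

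The median of the DC2.4 label was 0.33 with DESeq2, 0.36 with upper-quartile factors, 0.32 with library totals, 0.35 with TMM without the 76 genes, with no filter, with 1 CPM in 4 libraries and with limma-voom, 0.34 with only 4 libraries or copies summed and 0.25 with the length trend removed. The median of the 4T1 label was -0.060 with DESeq2, -0.031 with upper-quartile factors, -0.025 with totals, -0.045 with TMM without the 76 genes, -0.037 with only 4 libraries, -0.046 with copies summed and -0.090 with the length trend removed. For vesicles it was 0.043 with DESeq2, 0.048 with upper-quartile factors (32 rises, 1 fall) and 0.027 with the length trend removed, and only 4 libraries gave 5 falls. Removing the length trend also gave 6 falls for the DC2.4 label, 8 rises for the 4T1 label, 5 lower differences of the DC2.4 label from vesicles (5 also with copies summed), 7 higher differences of the 4T1 label from vesicles and 3 genes lower in EXOmock than in Mock labelled 4T1; it turned Rplp1 (0.13 to -0.089) and Rps4x (0.00 to -0.16) under the DC2.4 label. In these alternatives the cause was not tested. The direction of all 3 medians held in every setting run.

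With the preparation number as a replicate block, 70 rose and 3 fell (DC2.4 label), 17 and 39 (4T1 label) and 21 and 3 (vesicles). Preparations did not deviate together in every pair. The lowest level of any of the 76 genes in a library was 10.3 CPM (Rpl21); what depth limits was not compared between genes.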

Other observations

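Rps10, a gene of the 40S head left out by its level, had 37 to 179 counts per library, while its intronless copy Rps10-ps2 stood at 227 to 439.6 CPM. The copy rose under the DC2.4 label (log2 fold change 0.32, adjusted p = 2.55e-07 in edgeR's quasi-likelihood test) and did not pass under the 4T1 label (-0.011, adjusted p = 0.824) or with vesicles (0.035, adjusted p = 0.434). Rpl3-ps1 had a mean of 639 and 616 CPM in Mock and uniSTING labelled DC2.4 and of 67.9 to 128.6 CPM in the other groups. Rps12-ps3 rose under both labels given mRNA (0.28 and 0.27).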
